A study of Mus musculus with 20 samples.

Results

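The genes described here are Wt1, Tbx18, Tcf21, Upk1b and Upk3b, 5 markers of the epicardium taken by symbol from the 33495 genes of the deposited count table. RNA-seq was performed on 20 libraries of C57BL/6 mouse embryonic heart in 3 crosses that delete floxed Kmt2d, the gene of a histone H3K4 methyltransferase. Mesp1Cre, active in early mesoderm, was sampled as whole hearts at E9.0 (4 mutants and 4 controls). Tnnt2::Cre, driven in cardiomyocytes, was sampled as whole hearts at E11.5 (3 mutants and 3 controls), and Mef2cAHF::Cre, active in anterior heart field precursors, as right ventricle with outflow tract at E11.5 (3 libraries labelled mutant and 3 labelled control). In every line the mutants were Cre, Kmt2d fl/fl and mTmG/+, and the controls were Cre, Kmt2d fl/+ and mTmG/+, so the controls also lost 1 Kmt2d allele in the cells that expressed Cre. The labels do not say whether a library came from 1 embryo or from several, and p-values measure only the spread between these libraries.

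The epicardium is the outer cell layer of the heart. It arises from the proepicardium, a cluster of cells at the venous pole of the early heart, which spreads over the surface of the myocardium and later gives rise to fibroblasts and mural cells of the coronary vessels. Wt1 encodes a zinc finger transcription factor, Tbx18 a T-box factor and Tcf21 a basic helix-loop-helix factor, and all 3 are widely used to mark the proepicardium and the cells derived from it. Upk1b and Upk3b encode uroplakins, membrane proteins first described in the bladder urothelium that also mark mesothelial cells. Because whole tissue was sequenced, fewer epicardial cells and less RNA of a gene per epicardial cell cannot be told apart. RNA of these genes from other cells of the tissue cannot be set apart either.

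In the mm9 annotation Wt1 (ENSMUSG00000016458) lies on chromosome 2 at 104966686 to 105013773 on the plus strand, and Upk3b (ENSMUSG00000042985) on chromosome 5 at 136514366 to 136521173 on the plus strand. On the minus strand lie Tbx18 (ENSMUSG00000032419) on chromosome 9 at 87599040 to 87626095, Tcf21 (ENSMUSG00000045680) on chromosome 10 at 22537085 to 22539980, and Upk1b (ENSMUSG00000049436) on chromosome 16 at 38773303 to 38800314. Tcf21 overlaps the gene AC153369.1 on the plus strand. The sources used here do not say whether reads were counted by strand, so the count of Tcf21 may hold reads of that gene, which itself had 287 reads over all libraries against 13274 for Tcf21.

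RefSeq promoters of GRCm38.p6 were matched by symbol for 3 of the 5 genes, Upk3b, Tbx18 and Tcf21. Wt1 and Upk1b had no entry, so these 3 genes were not chosen by their levels. The 250 bases before each transcription start are given 5′ to 3′ on the strand of the gene, at chr5:136038246-136038495 (plus strand) for Upk3b, chr9:87731261-87731510 (minus strand) for Tbx18 and chr10:22820144-22820393 (minus strand) for Tcf21. Capitals mark matches to 5 motifs, searched on both strands. The core promoter motifs were TATAAA, known as the TATA box, with the CCAAT box by its own letters, and the GC box searched as GGGCGG. The motifs of cardiac factors were that of the GATA family, searched as AGATAA, and that of the TEAD family, searched as GGAATG.
Upk3b: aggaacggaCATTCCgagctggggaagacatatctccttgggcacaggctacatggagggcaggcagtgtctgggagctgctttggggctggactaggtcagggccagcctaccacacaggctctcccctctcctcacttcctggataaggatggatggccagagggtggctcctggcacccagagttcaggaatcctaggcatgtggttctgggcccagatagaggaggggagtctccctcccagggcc
Tbx18: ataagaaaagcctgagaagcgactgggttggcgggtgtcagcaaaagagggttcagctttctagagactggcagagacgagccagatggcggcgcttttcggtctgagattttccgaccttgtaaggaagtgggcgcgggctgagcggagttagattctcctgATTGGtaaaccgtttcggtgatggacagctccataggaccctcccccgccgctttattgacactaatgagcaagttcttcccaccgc
Tcf21: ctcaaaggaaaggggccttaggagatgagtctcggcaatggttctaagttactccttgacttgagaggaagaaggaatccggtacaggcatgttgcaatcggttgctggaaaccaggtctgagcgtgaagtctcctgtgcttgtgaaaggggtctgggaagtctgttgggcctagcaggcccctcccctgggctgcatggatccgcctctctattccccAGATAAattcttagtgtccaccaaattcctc
Each promoter held 1 match, and the 3 matches were to different motifs: the TEAD motif on the opposite strand in Upk3b, the CCAAT box on the opposite strand in Tbx18 and the GATA motif in Tcf21, 31 to 26 bases before the start. Of 32851 promoter windows of this length, 12.6% held the TEAD motif, 33.8% the CCAAT box and 9.99% the GATA motif, while the TATA box (12.4%) and the GC box (32.7%) were matched in 0 of the 3. Tbx18 had 15 CpG dinucleotides in this window, Tcf21 had 5 and Upk3b had 2, where the median of all windows was 6.

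Library totals ran from 21727258 to 45341870 reads, and all 12 cardiomyocyte markers examined were detected in every library. Kmt2d, listed as Mll2 and counted over the whole gene, had a log2 fold change in mutants of −0.21 in Mesp1Cre (edgeR quasi-likelihood test, adjusted p = 0.0764) and −0.35 in Tnnt2::Cre (adjusted p = 0.327), but of 0.32 for Mef2cAHF::Cre by the titles (adjusted p = 0.0359). The column names of the count table give these 6 Mef2cAHF::Cre libraries the genotype opposite to their titles, which reverses the sign for Kmt2d in this line. By qRT-PCR the paper reported a decrease of Kmt2d transcript in E11.5 mutants of this line. Both readings are given for this line, and the groups are called by their labels. Levels below are CPM, read counts relative to library size with TMM scaling over all 20 libraries, and a gene is called where its p, adjusted over all genes tested by the Benjamini-Hochberg method, is under 0.05.

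**Figure D1:**
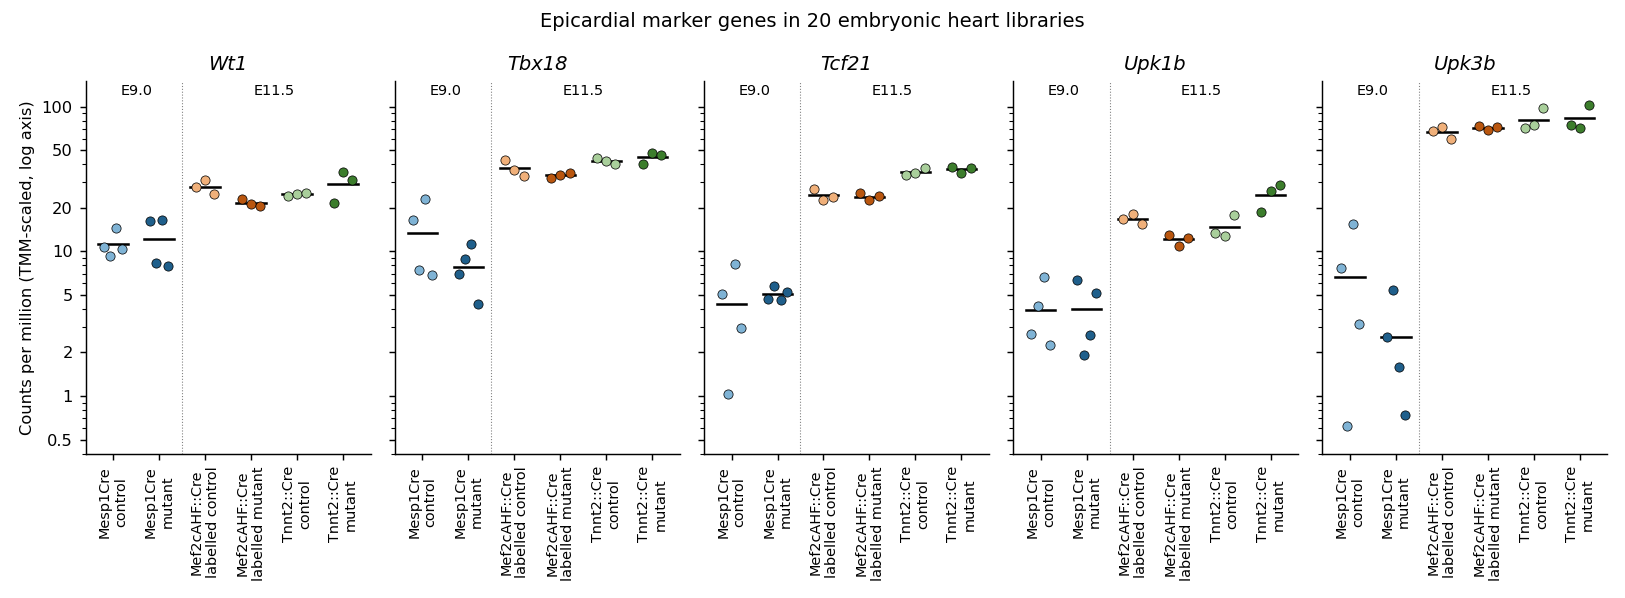
Levels of 5 epicardial marker genes in 20 embryonic heart libraries, in CPM on a log axis. Each point is 1 library, short lines are group means, and a dotted line separates the E9.0 hearts from the E11.5 tissue. All 8 E9.0 libraries lie below all 12 E11.5 libraries for each gene, and the points of Upk3b and Tcf21 in Mesp1Cre controls are the most widely spread.

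All 5 genes were lower in E9.0 than in E11.5 hearts, and the size of the difference varied widely, from 2.16-fold for Wt1 to 11.8-fold for Upk3b. The comparison was between the 4 Mesp1Cre controls and the 3 Tnnt2::Cre controls, both whole hearts. Stage cannot be told apart from the Cre line in this comparison.

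Wt1 was at 10.8, 9.28, 14.5 and 10.4 CPM in the E9.0 controls and at 24.1, 25.0 and 25.3 CPM in the E11.5 controls. The E9.0 hearts were all lower, and the E11.5 hearts were close to one another. The log2 fold change was −1.11 (SE 0.15, adjusted p = 0.0002, edgeR), the smallest of the 5.
Tbx18 was at 16.5, 7.42, 23.1 and 6.83 CPM at E9.0 and at 44.3, 41.8 and 40.3 CPM at E11.5. The groups did not overlap, although replicate 3 of the E9.0 controls had more than 3 times the level of replicate 4 (ratio 3.38). Tbx18 thus had a log2 fold change of −1.61 (SE 0.34, adjusted p = 0.0031).
Tcf21, required for the fibroblast fate of epicardium-derived cells, was at 5.04, 1.03, 8.19 and 2.97 CPM at E9.0 and at 33.7, 34.9 and 37.6 CPM at E11.5. Every E9.0 heart was far below the E11.5 hearts, and replicate 2 was lowest with 25 reads. This gave a log2 fold change of −3.00 (SE 0.43, adjusted p = 0.0003).

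Of the uroplakins, Upk1b was at 2.68, 4.21, 6.69 and 2.23 CPM at E9.0 and at 13.3, 12.8 and 17.9 CPM at E11.5. All E9.0 hearts were lower, with a log2 fold change of −1.86 (SE 0.32, adjusted p = 0.0008). Upk3b was at 7.61, 0.62, 15.4 and 3.13 CPM at E9.0 and at 71.0, 74.7 and 97.8 CPM at E11.5. The E9.0 hearts were again all lower but differed widely from one another, by a ratio of 24.9 between replicates 3 and 2. The log2 fold change of Upk3b was −3.56 (SE 0.61, adjusted p = 0.0009), and it was −4.37 without replicate 3 of the E9.0 controls.

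All 5 genes were called lower and all 5 did not overlap between the stages. Of 16697 genes tested, 38.3% were called, 19.6% were called lower, and 25.3% were lower without overlap, so that such calls were common. The median log2 fold change of the 5 genes was −1.86 and that of all genes tested 0.01. Against the E11.5 right ventricle and outflow tract the 5 genes were also called lower at E9.0, whichever of the 2 Mef2cAHF::Cre groups was used, with log2 fold changes of −0.92 to −1.31 for Wt1 and −3.31 to −3.40 for Upk3b.

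Erythroid markers moved with stage. All 11 genes of the erythroid list were called lower at E9.0, and their summed level was 5454 to 18015 CPM in the E9.0 controls against 104775 to 161906 CPM in the E11.5 controls. Leaving the erythroid list out before normalization moved no log2 fold change of the 5 genes, in any of the 4 comparisons, by more than 0.018. With erythroid content as a covariate, which is not separate from stage, 0 of the 5 genes and 1 gene of the whole table were called. Of 3 markers of the septum transversum and hepatic mesenchyme, tissue next to the proepicardium, 2 were called lower at E9.0 and 1 was higher (not called). Their sum was 13.9 to 35.8 against 62.8 to 139 CPM. Of 4 markers of the sinus venosus, 3 were called higher and 1 was lower (summed 75.9 to 152 against 54.9 to 58.6 CPM). The septum transversum sum of 139 CPM came mostly from 1 gene, at 134 CPM. In the E11.5 controls this sum ranked as the erythroid sum did, in the E9.0 controls only in part, and which tissue it stands for was not tested. The part of these tissues in the result was not tested.

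**Figure D2:**
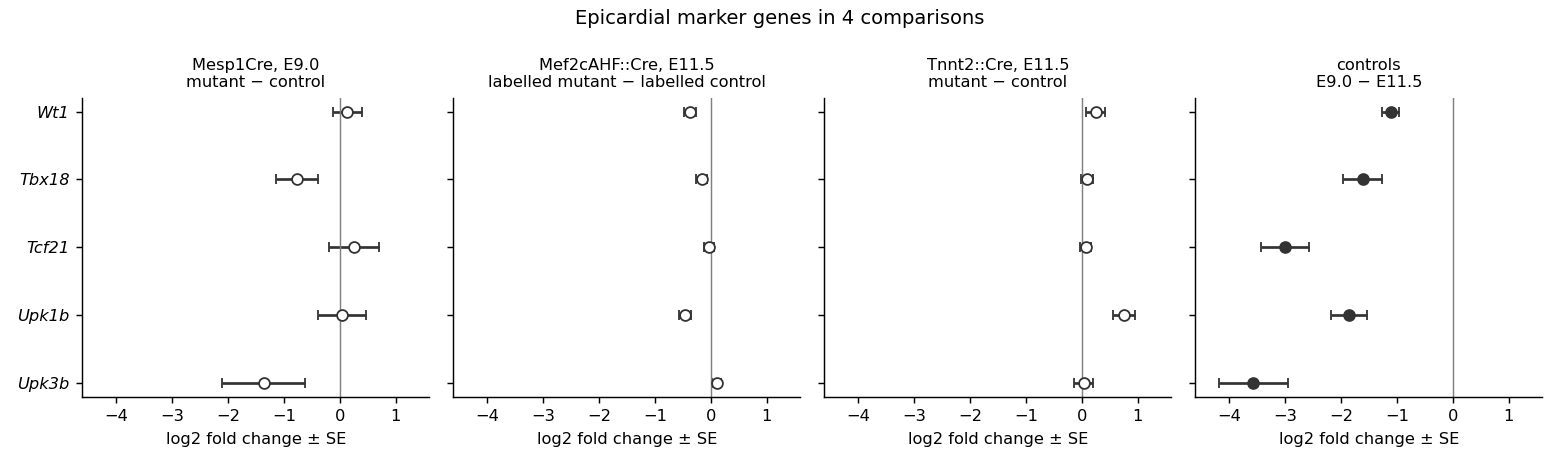
Log2 fold changes of the 5 genes in 4 comparisons, from edgeR fits. Points are estimates, bars 1 SE, and filled points passed the threshold of 0.05 on the adjusted p. Only the stage comparison has filled points, and Upk1b lies at −0.46 for Mef2cAHF::Cre by the titles and at 0.75 for Tnnt2::Cre.

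Among 28 other genes of the epicardium and of cells derived from it, the stages differed in both directions. Of 26 tested, 14 were called lower and 6 higher at E9.0, and the median log2 fold change was −1.46. Aldh1a2, which makes retinoic acid, was at 1.56 ± 1.34 CPM (SD, n = 4) at E9.0 and 29.2 ± 6.58 CPM (SD, n = 3) at E11.5, a log2 fold change of −4.17 (adjusted p = 0.0002). Efemp1, an extracellular matrix protein, changed by −3.53 and Pdgfrb, a receptor of mural cells, by −1.79.
Genes of the opposite direction were Podxl, a sialomucin (log2 fold change 1.56), Alcam, an adhesion molecule (1.44), and Krt8, an epithelial keratin (2.14). Podxl was at 246 ± 34.5 CPM at E9.0 and 85.1 ± 8.46 CPM at E11.5. Muc16, a mesothelial mucin chosen for mention after its values were seen, had 0 reads in the 4 E9.0 controls and a mean of 1.27 CPM at E11.5, at least 10.7-fold higher against a floor of 3 counts per library.

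**Figure D3:**
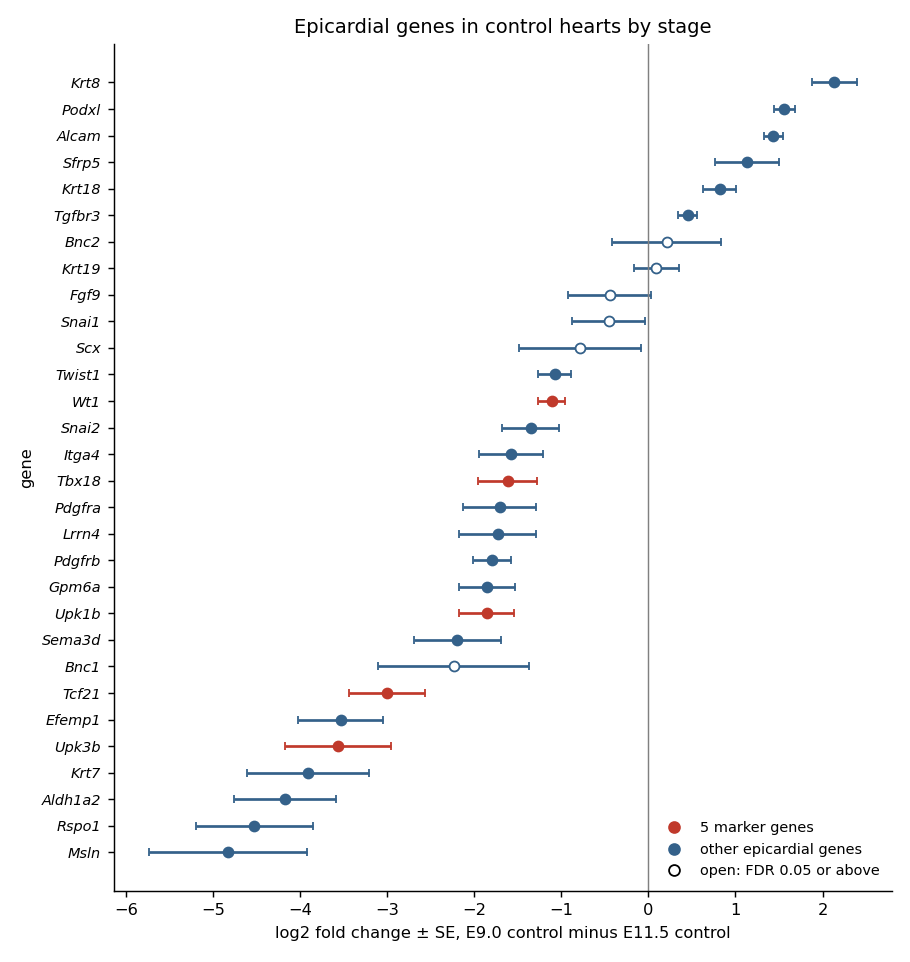
Log2 fold changes, E9.0 control minus E11.5 control, of the 5 marker genes (red) and of the other epicardial genes tested (blue), ordered by size. Bars are 1 SE, filled points passed the threshold, and Muc16, without reads at E9.0, is left out. The 5 markers all lie among the genes that were lower at E9.0, and Krt8, Podxl and Alcam lie highest.

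Levels of different genes were compared per length, in the FPKM that the authors deposited. At E11.5 Upk3b was highest of the 5 genes in 12 of 12 libraries (25.9 to 44.0 FPKM) and Wt1 lowest in 12 of 12 (3.11 to 6.14 FPKM). Tcf21 lay at 17.2 to 29.9, Tbx18 at 9.52 to 15.7 and Upk1b at 6.02 to 16.4 FPKM, and 10 of 12 libraries had the order Upk3b, Tcf21, Tbx18, Upk1b, Wt1.
The E9.0 hearts had no such order. Tcf21 was highest of the 5 in 5 of 8 libraries, Tbx18 in 2 and Upk1b in 1, while Upk3b was highest in 0 and lowest in 4, with 0.249 to 6.48 FPKM. Wt1 was at 1.42 to 2.85 FPKM at E9.0.

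The level of Tcf21 differed between the E11.5 tissues. It was at 27.0, 22.8 and 23.6 CPM in the libraries labelled control and 25.2, 22.5 and 23.9 CPM in those labelled mutant of right ventricle with outflow tract, and at 33.7 to 38.3 CPM in the 6 whole hearts of Tnnt2::Cre. The 6 libraries of each tissue did not overlap, under either reading of the labels, as for 24.2% of 18391 genes tested (12.9% lower in right ventricle with outflow tract). Ordered by mean level, the groups of Tbx18 and of Upk3b overlapped their neighbours among the 4 E11.5 groups. This is a description without a test, since tissue cannot be told apart from line.

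In Mesp1Cre hearts at E9.0, 0 of the 5 genes passed the edgeR test between mutants and controls, where 6.17% of 15883 genes tested were called higher and 5.29% lower. At an unadjusted p under 0.05 there were also 0 of the 5, where 26.9% of genes passed, and 0 passed with DESeq2 or with limma on FPKM. All 5 genes overlapped between the groups, where 18.1% of genes did not. Tbx18 and Upk3b had the lower mean in mutants, and Wt1, Tcf21 and Upk1b nearly equal means.
Upk3b was at 2.57, 5.37, 1.58 and 0.74 CPM in mutants, against the control levels of 7.61, 0.62, 15.4 and 3.13 CPM. The lowest library of all was a control and the highest a control, with the mutants in between. In edgeR the log2 fold change was −1.36 (SE 0.74, adjusted p = 0.264), and it was −0.54 (adjusted p = 0.698) without replicate 3 of the controls and −2.01 (adjusted p = 0.125) without replicate 2 of the mutants.
Tbx18 was at 6.92, 8.89, 11.2 and 4.31 CPM in mutants, against 16.5, 7.42, 23.1 and 6.83 CPM in controls. Controls 1 and 3 lay above every mutant and controls 2 and 4 among them. Tbx18 had a log2 fold change of −0.77 (SE 0.38, adjusted p = 0.219), and −0.37 (adjusted p = 0.571) without control replicate 3.

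Wt1 was at 16.2, 8.33, 16.3 and 7.92 CPM in Mesp1Cre mutants, with replicates 1 and 3 above every control and replicates 2 and 4 below. Its log2 fold change was 0.13 (SE 0.25, adjusted p = 0.784).
Tcf21 was at 4.68, 5.79, 4.61 and 5.24 CPM in mutants. These lay inside the range of the controls and much closer to one another. This gave a log2 fold change of 0.26 (SE 0.45, adjusted p = 0.767).
Upk1b was at 6.33, 1.93, 2.64 and 5.16 CPM in mutants, almost the range of the controls, with a log2 fold change of 0.04 (SE 0.43, adjusted p = 0.968). The SEs of these 5 values, from 0.25 to 0.74, were all above those of the 5 genes in the E11.5 lines below.

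In Mesp1Cre mutants 9 of 11 erythroid markers were lower (4 called) and 2 higher (0 called), summed 1944 to 7579 against 5454 to 18015 CPM. Endothelial markers were higher in 7 of 8 (3 called, 658 to 769 against 511 to 606 CPM), and the part of both lists was not tested. The mutants were 4 males of 4 and the controls 2 of 4, and with sex as a covariate the log2 fold change was −1.04 for Upk3b and 0.73 for Upk1b (adjusted p = 0.410).

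The spread between E9.0 hearts was itself large. In Mesp1Cre controls the SD of log2 CPM was 1.94 for Upk3b, 1.25 for Tcf21, 0.86 for Tbx18, 0.69 for Upk1b and 0.27 for Wt1, against a median of 0.19 over 12311 expressed genes. Upk3b stood at percentile 99.8 of those genes and Tcf21 at percentile 99.2. Upk3b had 15 reads in replicate 2 and 389 in replicate 3.
In Mesp1Cre mutants the SD was 1.16 for Upk3b but 0.15 for Tcf21, below the median gene at 0.21. In the E11.5 groups the SD of the 5 genes ran from 0.037 to 0.37, and the medians of all genes from 0.095 to 0.16. Control replicate 3, highest for all 5 genes, was also highest of the 4 controls for markers of foregut and lung endoderm (8.43 against 0.73 to 1.54 summed CPM) and of nephric and gonadal ridge (14.0 against 2.11 to 6.95 summed CPM). The foregut sum of 8.43 CPM came mostly from 1 gene, at 6.57 CPM. Of the 6 foregut genes, 4 stayed under 1 CPM in every library. Pharyngeal arch and liver bud sums were also highest in replicate 3. The septum transversum sum was highest in control replicate 4 (35.8 CPM) and the sinus venosus sum in control replicate 1 (152 CPM). The part of neighbouring tissue in this spread was not tested.

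**Figure D4:**
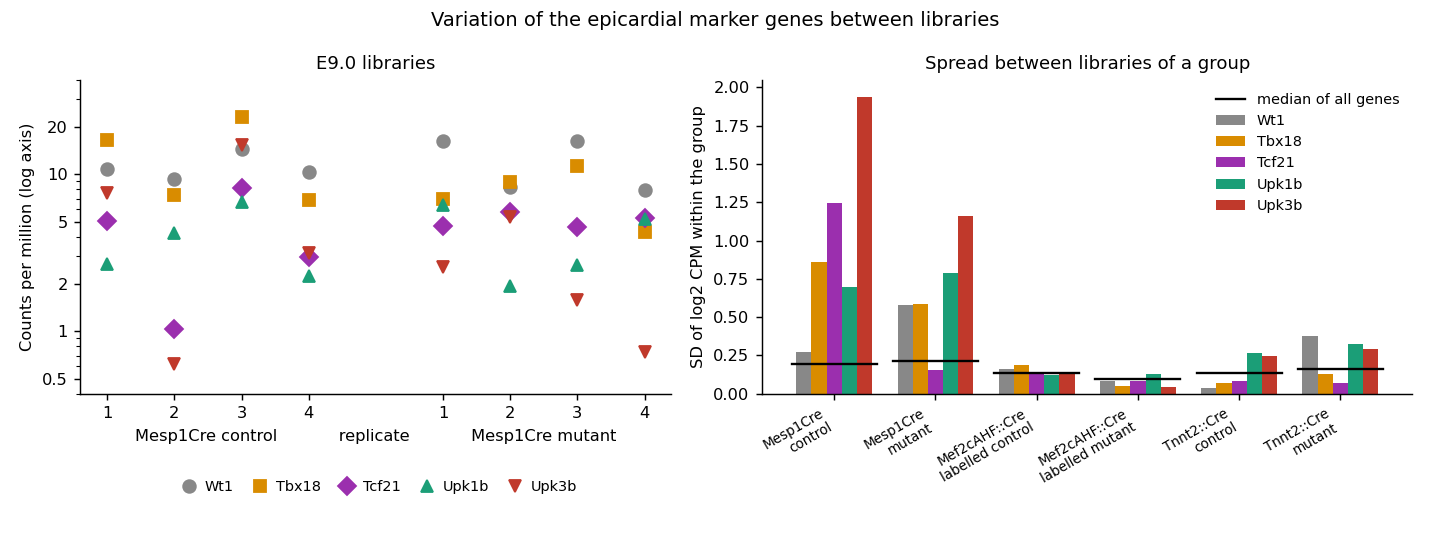
Left, levels of the 5 genes in each of the 8 E9.0 libraries, in CPM on a log axis. On the right, bars give the SD of log2 CPM within each group, with black lines at the median of 12311 expressed genes. Upk3b and Tcf21 are lowest in control replicate 2 and highest in control replicate 3, and the bars are tallest in the E9.0 groups.

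The 5 genes did not vary as 1 unit from heart to heart. Over the 8 E9.0 libraries, with each value taken as its deviation from the group mean, Upk3b correlated with Tcf21 at r = 0.88 and with Tbx18 at r = 0.78, and Tbx18 with Tcf21 at r = 0.68. Wt1 correlated with Tbx18 at r = 0.57, with Upk3b at r = 0.34, with Upk1b at r = 0.33 and with Tcf21 at r = 0.28. Upk1b correlated with Upk3b at r = −0.07, with Tbx18 at r = 0.02 and with Tcf21 at r = 0.12.
Over the 12 E11.5 libraries the order differed, with r = 0.76 between Upk1b and Upk3b, 0.74 between Wt1 and Upk1b, 0.45 between Tcf21 and Upk3b and 0.08 between Tbx18 and Upk3b. Both genes of a pair are read from the same libraries, with their depth and scaling in common, and the r values are descriptions.

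In the Mef2cAHF::Cre libraries, right ventricle with outflow tract at E11.5, 0 of the 5 genes passed the threshold in edgeR, where 2.85% of 16920 genes tested were called. At an unadjusted p under 0.05 there were 2, Wt1 and Upk1b, where 17.9% of genes passed. These 2 also did not overlap between the labelled groups, as for 23.9% of genes.
Wt1 was at 22.8, 21.1 and 20.5 CPM in the libraries labelled mutant and at 27.6, 30.8 and 24.7 CPM in those labelled control. The first group lay wholly below the second. By the titles the log2 fold change in mutants was −0.37 (SE 0.10, adjusted p = 0.0886), and by the column names it was 0.37.
Upk1b was at 13.0, 10.9 and 12.4 CPM in the libraries labelled mutant and at 16.6, 18.1 and 15.3 CPM in those labelled control. These groups too were apart. The log2 fold change was −0.46 (SE 0.11, adjusted p = 0.0589) by the titles and 0.46 by the column names. With the Wald test of DESeq2, or with all genes of at least 1 count kept in edgeR, both genes passed, at adjusted p = 0.0384 and 0.0305 for Wt1 and 0.0182 and 0.0225 for Upk1b.

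The other 3 genes overlapped between the labelled groups. Tbx18 was at 32.2, 33.4 and 34.5 CPM in the libraries labelled mutant and 43.0, 36.2 and 33.2 CPM in those labelled control, a log2 fold change of −0.17 (SE 0.10, adjusted p = 0.432) by the titles and 0.17 by the column names. Tcf21, with the levels given above, had a log2 fold change of −0.04 (SE 0.09, adjusted p = 0.892) by the titles and 0.04 by the column names.
Upk3b, the most abundant of the 5, was at 73.5, 69.3 and 72.1 CPM against 68.1, 71.7 and 59.7 CPM. Its log2 fold change was 0.11 (SE 0.08, adjusted p = 0.545) by the titles and −0.11 by the column names, and it was −0.02 on the FPKM scale. Erythroid markers were higher in the libraries labelled mutant (summed 25203 to 47691 against 7303 to 32195 CPM, 2 of 11 called), and with erythroid content as a covariate the values were −0.25 for Wt1 and −0.32 for Upk1b. Cardiomyocyte markers were higher there in 11 of 12 (1 called, 6 without overlap, summed 34681 to 40504 against 27553 to 35565 CPM), and endothelial markers in 6 of 8 (1 called, summed 635 to 663 against 564 to 609 CPM). The 5 pharyngeal arch markers tested all had the lower mean (0 called, summed 20.5 to 30.3 against 20.2 to 31.0 CPM). The part of these markers in the values of the 5 genes was not tested.

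In Tnnt2::Cre hearts at E11.5 the Cre is driven in cardiomyocytes. Here too 0 of the 5 genes passed the threshold in edgeR, where 0.293% of 17045 genes tested were called, and 1, Upk1b, had an unadjusted p under 0.05, where 11.9% of genes did.
Upk1b was at 18.7, 26.2 and 28.7 CPM in mutants and at 13.3, 12.8 and 17.9 CPM in controls. Every mutant lay above every control, which 8.92% of genes tested did. The log2 fold change was 0.75 (SE 0.19, adjusted p = 0.206), and Upk1b passed with the Wald test of DESeq2 (0.74, adjusted p = 0.0096) and in edgeR without mutant replicate 1 (0.91, adjusted p = 0.0128).
Wt1 was at 21.4, 35.3 and 31.3 CPM in mutants and at 24.1, 25.0 and 25.3 CPM in controls. Mutants 2 and 3 lay above all controls and mutant 1 below. For Wt1 the log2 fold change was 0.25 (SE 0.17, adjusted p = 0.623).

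Erythroid markers also set mutant 1 apart, with a summed level of 133476 CPM against 19535 and 44293 CPM in mutants 2 and 3 and 104775 to 161906 CPM in the controls. With erythroid content as a covariate the log2 fold change was 0.43 for Upk1b (adjusted p = 0.441) and −0.14 for Wt1. Septum transversum and hepatic mesenchyme markers were at 23.3 to 76.1 summed CPM in mutants and 62.8 to 139 in controls. Of these 3 genes 1 was higher and 2 lower in mutants, with 0 called and a median log2 fold change of −0.01. Their part was not tested. The sum of 139 CPM came mostly from 1 gene, at 134 CPM. Within mutants and within controls these sums ranked as the erythroid sums did.
Tbx18 was at 40.2, 47.8 and 46.3 CPM in mutants and overlapped the controls, with a log2 fold change of 0.09 (SE 0.10, adjusted p = 0.783). Tcf21 was at 38.3, 34.9 and 37.8 CPM, again overlapping the controls, with a log2 fold change of 0.07 (SE 0.09, adjusted p = 0.827). Upk3b was at 74.3, 71.4 and 103 CPM in mutants against 71.0, 74.7 and 97.8 CPM in controls, with 1 high library in each group. Its log2 fold change was 0.04 (SE 0.17, adjusted p = 0.961).

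Differences of mutant effect between the lines came from a single edgeR fit of all 6 groups. In it 0 of the 5 genes passed for any pair of lines under either reading, as also with the Wald test of DESeq2. The edgeR fit takes a common spread for each gene from all groups, so the wide E9.0 spread also enters differences between the E11.5 lines. For Upk1b the SE was 0.11 in Mef2cAHF::Cre and 0.19 in Tnnt2::Cre, each fitted alone, but 0.48 for their difference. A difference between those lines may thus have been missed. At an unadjusted p under 0.05 there was Upk1b between Mef2cAHF::Cre and Tnnt2::Cre by the titles, where 15.3% of genes passed, and Tbx18 between Mesp1Cre and Mef2cAHF::Cre by the column names, where 16.2% did. The effect for Upk1b, negative in Mef2cAHF::Cre by the titles and positive in Tnnt2::Cre, gave a difference of −1.21 on the log2 scale (SE 0.48, adjusted p = 0.215) by the titles and of −0.28 (SE 0.48, adjusted p = 1.00) by the column names. By the titles 3.19% of 18391 genes passed this test. By the column names 0 genes passed in edgeR, with 472 at an unadjusted p under 0.05, and 6 passed in DESeq2.
Upk3b gave the largest differences between Mesp1Cre and the other lines among the 5 genes, −1.41 (SE 0.77, adjusted p = 0.340) from Tnnt2::Cre, where 3.04% of genes passed, and −1.48 (SE 0.78, adjusted p = 0.236) from Mef2cAHF::Cre by the titles, where 11.3% passed. By the column names the second was −1.27 (SE 0.78, adjusted p = 0.443), where 1.63% passed. These values moved with single Mesp1Cre hearts. Without control replicate 3 they were −0.60, −0.68 and −0.46, and without mutant replicate 2 they were −2.08, −2.16 and −1.95.

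Of the other epicardial genes, shares near those of all genes tested were called in the 3 deletions. At an unadjusted p under 0.05 the share was near that of all genes in Mesp1Cre and larger in Mef2cAHF::Cre and Tnnt2::Cre. The list was not tested as a set. In Mesp1Cre, 2 of 22 tested were called, 1 higher and 1 lower, against the 6.17% and 5.29% of all genes given above, with 6 at an unadjusted p under 0.05 (26.9% of all genes). The Wald test of DESeq2 called 4, Alcam, Krt19, Pdgfrb and Sfrp5. Krt19, an epithelial keratin, rose from 27.4 ± 9.75 to 83.0 ± 24.2 CPM (SD, n = 4 each; log2 fold change 1.62, adjusted p = 0.0013). Sfrp5, a secreted Wnt inhibitor of the early venous pole, fell from 3.10 ± 1.17 to 1.00 ± 0.50 CPM (log2 fold change −1.61, adjusted p = 0.0343).
In Mef2cAHF::Cre, 1 of 26 was called in edgeR and in DESeq2, against 2.85% of all genes in edgeR, with 8 at an unadjusted p under 0.05 (17.9% of all genes). Podxl had 92.0 ± 2.27 CPM in the libraries labelled control and 72.4 ± 2.58 CPM (SD, n = 3 each) in those labelled mutant, giving a log2 fold change of −0.35 (adjusted p = 0.0271) by the titles and 0.35 by the column names. In Tnnt2::Cre 0 of 26 were called in edgeR (0.293% of all genes), with 7 at an unadjusted p under 0.05 (11.9% of all genes), and the Wald test of DESeq2 called 1 (Sfrp5). The median log2 fold changes of the list were 0.08, −0.12 and 0.16 in the 3 lines, against −0.00, −0.01 and 0.00 for all genes tested.

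The other uroplakins were barely detected in these tissues. Upk1a, the tetraspanin relative of Upk1b, reached 2.10 CPM at most, Upk2 and Upk3a stayed under 1 CPM in all 20 libraries, and Upk3bl is not in the table. Upk1a was higher at E9.0 than at E11.5 in controls (1.12 against 0.245 CPM, log2 fold change 2.20, adjusted p = 0.0180), where Upk1b was lower. In Tnnt2::Cre it was at 0.706 ± 0.111 CPM in mutants and 0.245 ± 0.0881 CPM in controls (SD, n = 3 each; log2 fold change 1.51, edgeR adjusted p = 0.224), without overlap and higher in mutants, as Upk1b was.

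Genes that varied like the 5 markers were sought by the correlation of their within-group deviations with the mean deviation of the 5 genes. It was taken over 20 libraries and 12306 genes of mean log2 CPM of at least 1. Upk3b and Tcf21 weigh most in this mean, through the Mesp1Cre controls (SD of log2 CPM 1.94 and 1.25). The 8 highest were Bnc1 (r = 0.89), Lrp2 (0.89), Gm98 (0.88), Phf13 (0.88), Htra1 (0.88), Macrod1 (0.87), Lrrn4 (0.87) and Fibp (0.86). Bnc1 and Lrrn4 belong to the list of other epicardial genes, Lrp2 encodes the endocytic receptor megalin, Htra1 a secreted protease, and Gm98 is a RefSeq synonym of Myrf, a transcription factor anchored in membranes. Bnc1, encoding a zinc finger protein basonuclin, was at 4.41, 0.00, 6.96 and 0.20 CPM in the E9.0 controls, highest in replicate 3 and lowest in replicate 2 as Upk3b was. Of the 21 genes of that list among these genes, 17 had a positive and 4 a negative r, with a median of 0.31 and the lowest value, −0.61, for Fgf9. Within the 12 E11.5 libraries the r of these 8 genes ran from 0.35 for Phf13 to 0.86 for Htra1, and from 0.88 to 0.94 within the 8 E9.0 libraries.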

How the data were processed

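RNA-seq was performed on 20 mouse embryonic heart libraries. The authors aligned reads to mm9 (TopHat2 2.0.8b in the submitters' processing notes), and deposited for each gene and library the count of reads, not normalized, and an FPKM computed with USeq 8.6.4. The 20 columns of log2 values that the authors made by variance correction were not used. Whether counting used strand is not given in the sources used here.

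Libraries were grouped by their titles and genotypes. The column names reverse both Mef2cAHF::Cre groups, while the library names in the header line above them follow the titles. The labels give E9.0 for Mesp1Cre, though the protocol text names E11.5. No 2 libraries had identical counts. Sex, read from 4 Y-linked genes with 10 CPM or more as male, gave 2 males of 4 Mesp1Cre controls, 4 of 4 mutants, 1 of 3 labelled control and 0 of 3 labelled mutant, and 2 of 3 Tnnt2::Cre controls and 1 of 3 mutants.

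For each comparison, counts of both groups entered an edgeR 4.0.16 model under R 4.3.3 (filterByExpr, TMM, quasi-likelihood F test, no covariates), and p was adjusted over all genes tested, with 0.05 as the threshold. Each SE is the absolute log2 fold change divided by the square root of F. Log2 CPM used a prior count of 2. Differences between lines came from 1 fit of 6 groups. The scripts were tested on simulated data. The alternatives were DESeq2 1.42.0 (size factors and Wald test), other count filters, the 6-group fit, a replicate block, limma 3.58.1 on log2(FPKM + 0.1) and log2(FPKM + 1), thinning to 21727258 reads, sex or erythroid content as covariates, other E11.5 tissue, and each library left out. For Mesp1Cre a code in the library names served as a block. Leaving out the erythroid list before normalization was added after the data were seen.

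The 5 genes, the gene lists and the rules were chosen with earlier results of these data known. The text names the 5 genes, other epicardial genes past the threshold (at most 6 with the lowest adjusted p in a comparison) and the 8 genes of highest likeness.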

Additional observations from a re-analysis of the deposited data

How the results depend on the processing

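Of the values of single genes under the alternatives, 774 kept their direction and side of the threshold, 42 changed sign, 6 newly passed and 3 kept their direction but no longer passed. Of the sign changes 2 (Tcf21 and Upk3b between the stages) also no longer passed, 5 in all. The calls that moved were these. In Mef2cAHF::Cre 2 genes (Wt1 and Upk1b) passed with the DESeq2 Wald test and 2 with all genes of at least 1 count, against 0, while the calls over all genes rose from 482 to 1076 and 1311. In Tnnt2::Cre 1 gene (Upk1b) passed with the Wald test (368 calls against 50) and 0 to 1 with a library left out, the 1 without Tnnt2::Cre mutant replicate 1 (896 calls). Between stages 0 of 5 passed with erythroid content as a covariate (1 call against 6401), with Wt1 at −0.46, Tbx18 at −0.22, Upk1b at −3.13, Tcf21 at 0.39 and Upk3b at 0.52. Stage and erythroid content cannot be told apart. Calls over all genes also moved by over 1.5 times in Mesp1Cre (1821 against 3593 in the 6-group fit, 899 with sex and 540 with erythroid content as covariates), in Mef2cAHF::Cre (482 against 129 in the 6-group fit, 291 and 253 with FPKM, 179 with erythroid content) and in Tnnt2::Cre (50 against 120 with at least 1 count, 82 in the 6-group fit, 22 and 19 with FPKM, 17 with sex, 113 with erythroid content). With a library left out they ran from 1052 (Mesp1Cre mutant 1) to 2161 in Mesp1Cre, 75 (labelled mutant 2) to 662 in Mef2cAHF::Cre, 4 (control 3) to 896 in Tnnt2::Cre and 4758 to 6156 between the stages. For Mesp1Cre against Tnnt2::Cre they moved from 559 to 1247 with DESeq2 and 167 (without Tnnt2::Cre control 2) to 1037 (Mesp1Cre mutant 2), for Mesp1Cre against Mef2cAHF::Cre from 2076 to 1225 (labelled control 2) by the titles, and by the column names from 299 to 782 with DESeq2, 462 with at least 1 count and 39 (labelled control 3) to 637 (Mesp1Cre mutant 2). For Mef2cAHF::Cre against Tnnt2::Cre they moved from 586 to 1041 with DESeq2 and 295 (labelled mutant 2) to 1031 (Tnnt2::Cre mutant 1) by the titles, and from 0 to at most 9 by the column names.

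With erythroid content as a covariate the log2 fold change turned to −0.21 for Wt1 and −0.48 for Upk1b in Mesp1Cre, and to −0.14 for Wt1, −0.041 for Tbx18 and −0.026 for Upk3b in Tnnt2::Cre. In Mef2cAHF::Cre, Upk3b turned to −0.023 on both FPKM scales, where the median of all genes was −0.13 and −0.10. By the column names the values were 0.37 for Wt1, 0.17 for Tbx18, 0.035 for Tcf21, 0.46 for Upk1b and −0.11 for Upk3b. The causes were not tested.

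With each library left out, values ran from −0.031 to 0.31 for Wt1, −0.070 to 0.77 for Tcf21 and −0.26 to 0.42 for Upk1b in Mesp1Cre, −0.081 to 0.041 for Tcf21 in Mef2cAHF::Cre and −0.15 to 0.18 for Upk3b in Tnnt2::Cre. For Mesp1Cre against Tnnt2::Cre they ran from −0.31 to 0.035 for Wt1 and −0.15 to 0.68 for Tcf21, and for Mesp1Cre against Mef2cAHF::Cre from −0.051 to 0.78 for Tcf21 by the titles and −0.12 to 0.71 by the column names. For Mef2cAHF::Cre against Tnnt2::Cre they ran from −0.080 to 0.26 for Upk3b by the titles, and by the column names from −0.052 to 0.28 for Wt1, −0.029 to 0.16 for Tbx18, −0.10 to 0.022 for Tcf21 and −0.29 to 0.049 for Upk3b.

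Same-numbered mutants and controls correlated between −0.04 and 0.18 in their deviations, and the numbers were not taken to pair libraries. These correlations cannot tell whether libraries shared an origin. In Mesp1Cre, mutants and controls of the same number share a code in their library names. With that code as a block 0 of the 5 genes were called, and 1482 of all genes. The replicate block left 0, 0, 0 and 5 genes called in Mesp1Cre, Mef2cAHF::Cre, Tnnt2::Cre and the stages, and moved the calls over all genes to 1384, 517, 28 and 5224. Reads per gene were few in some E9.0 libraries, with 15 for Upk3b in 1 library, and their part in the E9.0 spread was not tested.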
